A study of Mus musculus with 8 samples.

Results

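Dock2, Dock5, Dock8, Dock9, Dock10 and Dock11 encode DOCK proteins, and their transcripts were followed in B cells that were about to enter germinal centers (GCs). They were taken by gene symbol, as 6 of the 24259 genes in the count table. They had been chosen by earlier results on their transcript levels in these same libraries, so the values of the 6 genes in HET and WT are given below as a description and without a test. To ask how B cells differ when the T cells that help them have lost a copy of Bcl6, the study sequenced NP-binding, IgD-low, B220-positive pre-GC B cells from lymph nodes of C57BL/6 mice. All recipients were CD45.1 mice deficient in SAP, an adaptor that T cells need for stable contact with B cells, and all were immunized under the skin with the hapten NP on ovalbumin (NP-OVA) together with LPS in alum 1 day after T cell transfer. In the HET group (n = 4) the transferred OT-II T cells, which recognise ovalbumin, were CD4-Cre × Bcl6fl/+, and in the WT group (n = 4) they carried CD4-Cre alone, so the Cre transgene, driven by the Cd4 promoter, was present in both. B cells were collected on day 3. The methods describe no irradiation of these recipients, which kept their own SAP-deficient T cells. The sequenced B cells did not carry the Bcl6 lesion, so no targeted gene could check the labels. According to the methods, B cells from all recipients of a group were pooled and then sorted into 4 repeats of about 200 cells. Replicate spread therefore covers sorting and library preparation, p-values measure no more than that spread, and T cell genotype and pool cannot be told apart.

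DOCK proteins are guanine nucleotide exchange factors: they load the small GTPases Rac and Cdc42 with GTP through a catalytic domain called DHR2, and the loaded GTPases drive actin assembly, migration and cell contact. Dock2 and Dock5 belong to the DOCK-A subfamily, which acts on Rac with ELMO adaptors, and Dock2 is the main Rac activator downstream of chemokine receptors in lymphocytes. Dock8 acts on Cdc42, and its loss in humans and mice causes an immunodeficiency with poor persistence of GC B cells. Dock9, Dock10 and Dock11 form the DOCK-D (zizimin) subfamily, which acts on Cdc42, and Dock10 is known in B cells as a gene induced by interleukin 4.

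The libraries held 6652386 to 12559189 counts each, and 3 counts correspond to 0.240 to 0.454 CPM (counts relative to the library total, scaled by TMM). B cell identity was checked with 10 B cell markers, whose summed level was 11795 to 13260 CPM in HET and 13753 to 14764 CPM in WT, so that these ranges did not overlap. Cd79a, a chain of the B cell receptor complex, ranged from 3201 to 3988 CPM over the 8 libraries. Summed T cell markers (18 genes) ranged from 542 to 928 CPM in HET and from 477 to 753 CPM in WT, and 11 of the 18 were highest in HET replicate 2. Cd4, which marks the helper T cells, did not exceed 0.756 CPM in any library. Other T cell markers were higher, with Cd8b1 at 12.2 to 123 CPM and Cd3d at 2.64 to 46.3 CPM over the 8 libraries. The largest parts of the T cell sum came from Cd2, at 168 to 245 CPM, and Lck, at 92.1 to 172 CPM. In WT replicate 4 these gave 207 and 131 CPM of the sum of 477 CPM. The 15 myeloid markers present in the table summed to 317 to 653 CPM in HET and to 267 to 584 CPM in WT. NK cell markers (8 genes) summed to 49.6 to 192 CPM in HET and 39.8 to 109 CPM in WT. Plasmablast markers (10 genes) summed to 417 to 2435 CPM in HET and 365 to 797 CPM in WT, the highest sum being that of HET replicate 1. None of these markers was at 0 in all 8 libraries. Across all genes, edgeR called 3 of 12744 tested genes (0.0235%) at an adjusted p under 0.05, all lower in HET, a direction not kept in every setting.

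Among the 6 genes, Dock10 (ENSMUSG00000038608, GRCm38 chr1:80501073-80758527, minus strand) was the one whose groups stood apart. Its level was 119, 135, 153 and 110 CPM in HET replicates 1 to 4. In WT replicates 1 to 4 it was 225, 195, 195 and 203 CPM. The highest HET library thus lay 41.8 CPM below the lowest WT library, and every HET library was below every WT library (16 of 16 pairs). Means were 129 ± 19.0 CPM in HET and 205 ± 14.3 CPM in WT (SD, n = 4 each). The log2 fold change of HET against WT was -0.66 (SE 0.12), so that the WT level was 1.58 times the HET level. Leaving out each library in turn gave log2 fold changes between -0.75 and -0.59. Of all tested genes, 2.64% had all HET libraries below all WT libraries, and 4.62% had no overlap in either direction. In bulk RNA of this kind, fewer cells of a type and less RNA per cell cannot be told apart.

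The B cell marker sum moved in the same direction as Dock10, and Dock10 was therefore also taken relative to it, a scale added after the data were seen. Dock10 was 9.76, 11.03, 11.6 and 9.34 CPM per 1000 CPM of the 10 markers in HET replicates 1 to 4. The corresponding WT values were 15.5, 14.2, 13.2 and 14.5. The groups still did not overlap on this scale, with means of 10.4 ± 1.04 and 14.4 ± 0.938 (SD, n = 4 each). For Dock2, Dock8 and Dock11 the groups overlapped on the same scale. The Dock2 means were 15.4 in HET and 14.9 in WT, against its negative log2 fold change. Those of Dock8 were 4.85 in HET and 5.01 in WT, and those of Dock11 were 6.74 in HET and 5.604 in WT. Relative to Dock2, another exchange factor of lymphocytes, Dock10 had 0.534, 0.731, 0.872 and 0.615 counts per Dock2 count in HET. In WT this ratio was 1.13, 0.956, 0.737 and 1.101. WT replicate 3, which had the highest Dock2 level, fell inside the HET range, so the groups overlapped when Dock10 was read against Dock2.

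**Figure D1:**
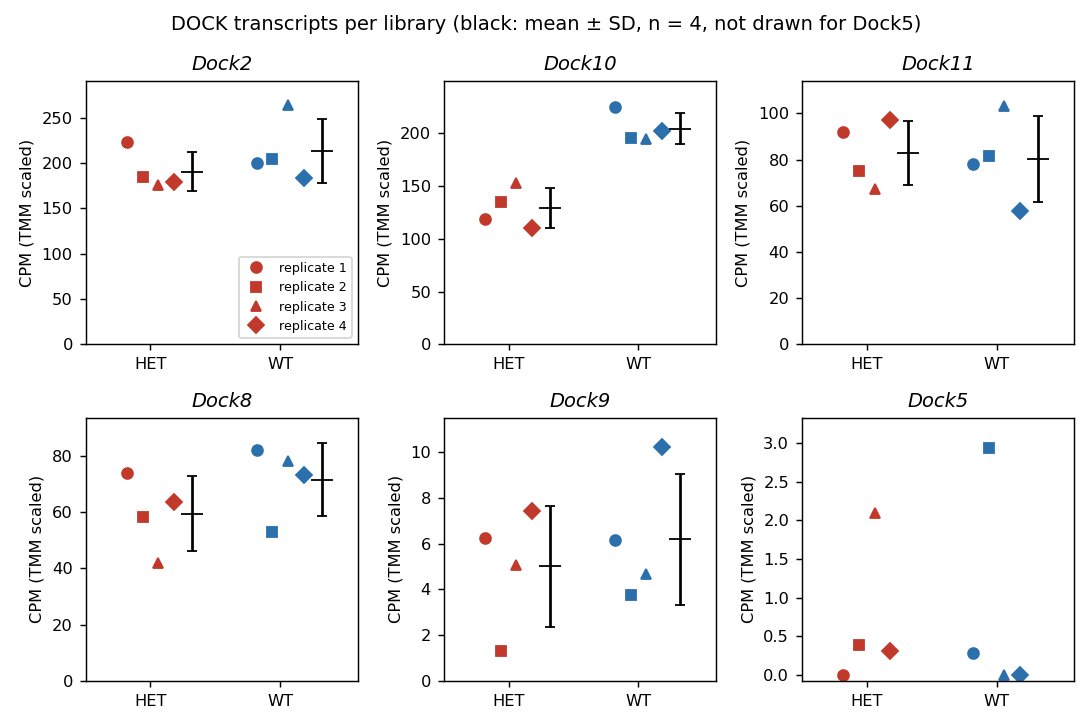
TMM-scaled CPM (y axis, linear) of the 6 DOCK genes in each of the 4 HET libraries (red) and 4 WT libraries (blue), with the replicate given by the symbol. The mean ± SD is in black and is not drawn for Dock5. Dock10 is the gene with no overlap between HET (110 to 153 CPM) and WT (195 to 225 CPM), whereas the red and blue points of the other 5 genes share a range.

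Dock2 (ENSMUSG00000020143, chr11:34226815-34783892, minus strand) was measured at 223, 185, 176 and 179 CPM in HET. In WT it was 200, 204, 264 and 184 CPM. HET replicate 1 lay above 3 of the 4 WT libraries and WT replicate 4 lay inside the HET range, so the groups overlapped. The means were 191 ± 22.0 CPM in HET and 213 ± 35.2 CPM in WT (SD, n = 4 each), with a log2 fold change of -0.16 (SE 0.13). Exons of Dock2 share 460 bases with the antisense gene 4930403D09Rik, and since the strand setting of the counting is not given in the sources used here, reads of the pair cannot be told apart there. The few counts of the other DOCK-A member, Dock5 (chr14:67752135-67933442, minus strand), were 0, 3, 14 and 2 in HET. In WT they were 3, 29, 0 and 0. With 0 counts in 3 of 8 libraries, Dock5 did not pass the filter on low counts, and a count of 0 allows up to 3.69 counts (exact Poisson 95% interval, counting error only). WT replicate 2 held the most, 29 counts (interval 19.4 to 41.6), equal to 2.94 CPM. The 15 myeloid markers summed to 584 CPM in that library, 398 CPM of it from the lysozyme gene Lyz2 alone, and 2 of the 15 were highest there. The sum was larger, 653 CPM, in HET replicate 1, which had 0 Dock5 counts. There Ly6c2 gave 338 CPM of it, Tyrobp 181 CPM and Lyz2 13.4 CPM, so the sums of these libraries rest on different genes and are not like measures. In HET replicate 3, which had 14 Dock5 counts, the sum was 361 CPM. Whether the Dock5 counts came from myeloid cells was not tested.

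Dock8 (chr19:24999534-25202432, plus strand) was measured at 73.9, 58.4, 42.1 and 63.8 CPM in HET. In WT it was 82.2, 53.1, 78.1 and 73.2 CPM. The lowest value, in HET replicate 3, and the highest, in WT replicate 1, came from different groups, but WT replicate 2 lay below 3 of the 4 HET libraries. Means were 59.5 ± 13.3 CPM in HET and 71.7 ± 12.9 CPM in WT (SD, n = 4 each), with a log2 fold change of -0.26 (SE 0.19).

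The groups overlapped for both other DOCK-D genes. Dock11 (chrX:35888832-36076562, plus strand) was measured at 92.0, 75.2, 67.3 and 97.0 CPM in HET. In WT it was 78.3, 81.4, 103 and 57.6 CPM, so WT held both the highest and the lowest library. Its means were 82.9 ± 13.9 and 80.1 ± 18.7 CPM (SD, n = 4 each), with a log2 fold change of 0.05 (SE 0.18). Without single libraries this value ran from -0.08 to 0.20. Dock9 (chr14:121542046-121797837, minus strand) was a low transcript with 6.25, 1.29, 5.08 and 7.41 CPM in HET. In WT it had 6.16, 3.75, 4.65 and 10.2 CPM. The extremes rested on 10 counts in HET replicate 2 (exact Poisson 95% interval 4.80 to 18.4) and 98 counts in WT replicate 4 (interval 79.6 to 119). The log2 fold change of -0.31 (SE 0.55) turned to 0.02 without HET replicate 2 and to 0.04 without WT replicate 4, so Dock9 had no stable direction.

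Of the 5 genes that passed the filter on low counts, 4 had a negative and 1 a positive log2 fold change, with a median of -0.26, beside a median of -0.0014 and 6388 negative against 6356 positive values over all 12744 tested genes. The median is the value of Dock8, and Dock2, Dock8, Dock9 and Dock11 all lay within 2 SE of 0. As the members were chosen by their levels in these libraries, this median cannot be read as a shift of the family. The negative values of Dock2 and Dock8 also depended on the scale. Relative to the B cell markers, Dock2 had the higher mean in HET, and Dock8 had 4.85 in HET against 5.01 in WT. Spread between libraries also differed among the 6 genes. The SD of log2 CPM within groups was 0.16 for Dock10 and 0.19 for Dock2, and it was 0.31 for Dock8, 0.30 for Dock11 and 0.89 for Dock9. Dock10 thus had a spread at the 9.93 percentile of all tested genes and Dock9 at the 82.9 percentile. These percentiles do not take the level of a gene into account. Genes of a level like that of Dock10 had a median SD of 0.17 (817 genes), close to its own. Those of a level like that of Dock9 had a median of 0.71 (1522 genes).

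Together the 6 genes summed to 514, 456, 446 and 458 CPM in HET. In WT they summed to 593, 541, 645 and 528 CPM. The ranges of the sum did not overlap, and Dock10 made up the larger part of the gap between the group means of 468 ± 31.2 and 577 ± 53.8 CPM (SD, n = 4 each). This sum was not taken relative to the B cell markers, whose own sum was also lower in HET. On that scale Dock2, Dock8 and Dock11 overlapped between the groups, so the sum of the members may not stand apart there. Of the counts on the 6 genes, Dock10 took 23.2 to 34.4% in HET and 30.2 to 38.4% in WT. Dock11 took 15.1 to 21.2% in HET and 10.9 to 16.001% in WT, so both shares overlapped between the groups. Over the 8 libraries, Pearson correlations between members (log2 CPM) ran from -0.34 for Dock10 with Dock11 to 0.64 for Dock11 with Dock2, values that describe 8 shared libraries and the 2 group means in them.

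To compare the genes with each other, levels have to be given per length, and the order turned on which length was used. In the authors' TPM, the order of the means over 8 libraries was Dock10 at 4.67, Dock8 at 4.01, Dock11 at 3.36, Dock2 at 2.05, Dock9 at 0.184 and Dock5 at 0.0223 TPM. Dock10 was above Dock8 in 6 of 8 libraries and Dock8 above Dock11 in 5 of 8, so these neighbours were not separated in every library, whereas Dock11 was above Dock2 and Dock2 above Dock9 in all 8. Dividing each gene's count by its TPM gave one number per gene in every library (largest log2 deviation 9.88e-15 over 9502 genes), and from it the length that had been used could be read. For 94.0% of 23530 annotated genes this length was within 5% of the mean genomic span of the annotated transcripts, introns included, and for 2.89% it was within 5% of the union of exons. For Dock2, with very long introns, the length behind the TPM was 299 kb, beside 11425 exonic bases. For Dock10 it was 108 kb beside 18267 bases, and for Dock8 it was 49.6 kb beside 10070 bases.

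**Figure D2:**
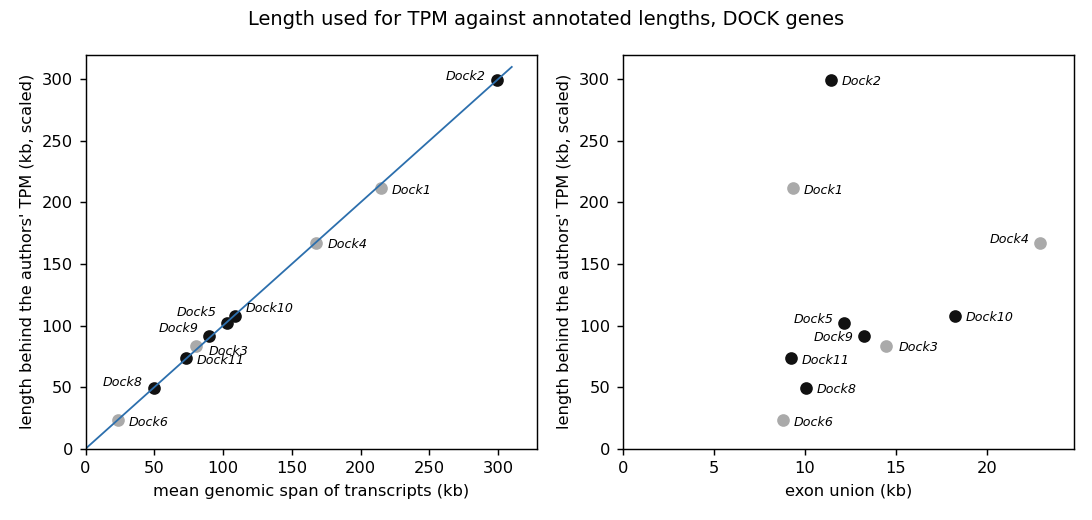
Length by which the authors' TPM divides (y axis, kb, scaled to the annotation) against the mean genomic span of transcripts (left, kb) and the union of exons (right, kb) for the 6 members (black) and 4 other DOCK genes (grey). The points lie on the blue line of equal lengths at left, with Dock2 at 299 kb, and show no such line at right.

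Divided by exon length, the order was different. Dock2 led with 17.7 ± 2.60 CPM per kb of exon (SD over 8 libraries) and was above Dock10 in all 8. Dock10 with 9.14 ± 2.36 and Dock11 with 8.82 ± 1.66 CPM per kb did not differ beyond their spread, Dock10 being the higher in 4 of 8 libraries. Dock8 followed with 6.51 ± 1.37, Dock9 with 0.423 ± 0.198 and Dock5 with 0.0617 ± 0.0922 CPM per kb. The order Dock2, Dock10, Dock11, Dock8, Dock9, Dock5 was also found with the length of the longest coding transcript, a scale added after the data were seen. On that scale Dock2 was at 31.5 and Dock10 at 23.2 CPM per kb, Dock2 being above Dock10 in 7 of 8 libraries. Per kb of exon, Dock10 was above Dock11 in the WT group mean (11.2 ± 0.784 against 8.67 ± 2.02) and below it in the HET group mean (7.09 ± 1.04 against 8.97 ± 1.51; SD, n = 4 each). This crossing did not hold per kb of longest coding transcript, where Dock10 was above Dock11 in all 8 libraries.

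**Figure D3:**
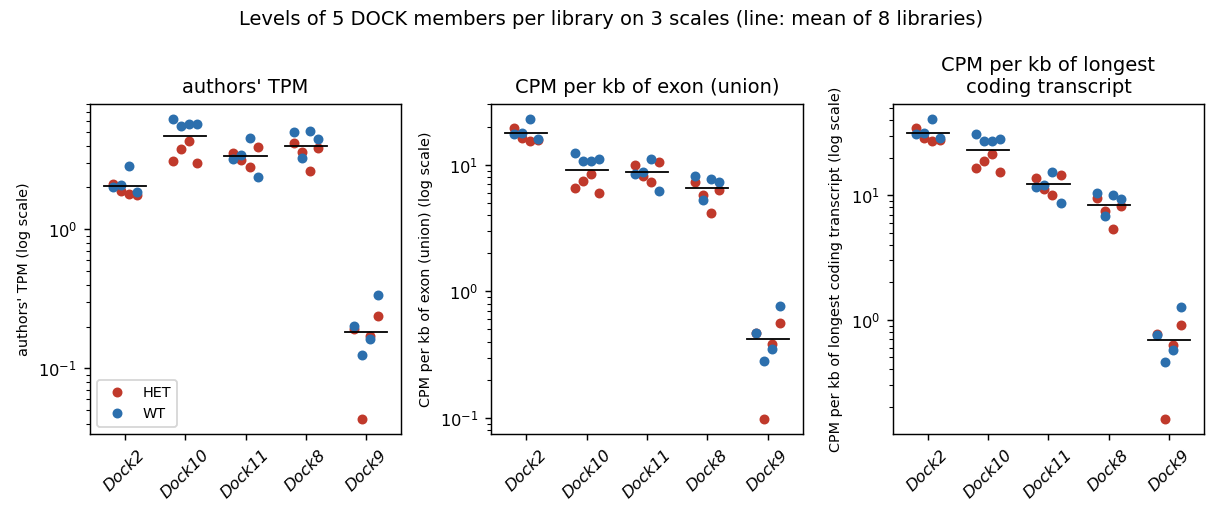
Levels of 5 DOCK genes in each of the 8 libraries (red HET, blue WT, black line the mean of 8) as the authors' TPM, as CPM per kb of exon and as CPM per kb of the longest coding transcript, all y axes on a log scale. Dock2 is the lowest of the 4 abundant genes in TPM (mean 2.05) and the highest on both other scales (means 17.7 and 31.5).

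Other DOCK genes in the table were near the limit of detection. Dock1, a DOCK-A gene of many tissues, had 3, 2, 0 and 0 counts in HET and 0, 39, 13 and 0 in WT. Dock4, of the DOCK-B subfamily, had 5, 0, 3 and 1 counts in HET and 9, 18, 3 and 2 in WT. The highest counts of Dock1, Dock4 and Dock5 were thus all in WT replicate 2. Dock3, the other DOCK-B gene, had 28, 2, 3 and 2 counts in HET and 3, 2, 2 and 0 in WT. Dock6, a relative of Dock8, had 7, 15, 31 and 6 counts in HET and 0, 5, 22 and 25 in WT. Of these 4 genes only Dock6 passed the filter on low counts, with a log2 fold change of 0.45 (SE 1.07, edgeR adjusted p = 0.959). Dock2, Dock8, Dock10 and Dock11 held 97.0 to 99.1% of all counts on DOCK genes in every library.

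Promoter sequences are shown for Dock10, the gene whose groups stood apart, and for Dock2, the abundant gene whose groups overlapped. They are the 250 bases before the RefSeq start site (GRCm38.p6), read 5′ to 3′ on the gene's strand, and capitals mark matches to the motifs named in the next paragraph. The Dock10 window is chr1:80758554-80758803 (minus strand) and the Dock2 window is chr11:34783906-34784155 (minus strand).
Dock10: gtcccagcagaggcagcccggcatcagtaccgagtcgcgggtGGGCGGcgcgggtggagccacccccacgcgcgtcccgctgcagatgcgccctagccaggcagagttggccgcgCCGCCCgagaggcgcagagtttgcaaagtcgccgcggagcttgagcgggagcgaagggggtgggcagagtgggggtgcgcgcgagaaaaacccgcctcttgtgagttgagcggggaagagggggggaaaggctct
Dock2: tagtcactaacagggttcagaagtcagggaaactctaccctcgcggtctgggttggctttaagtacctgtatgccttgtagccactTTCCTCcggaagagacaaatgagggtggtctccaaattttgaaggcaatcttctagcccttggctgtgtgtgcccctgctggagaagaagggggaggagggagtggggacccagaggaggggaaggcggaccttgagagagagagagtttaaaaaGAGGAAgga

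Both strands were searched for AP-1 (TGANTCA), STAT6 (TTC and GAA separated by any 4 bases), E-box (CACGTG), GC box (GGGCGG), PU box (GAGGAA), ETS (CCGGAAGT) and NF-kB sites, the last by name. RefSeq promoters were matched for 5 of the 6 genes, with 8 start sites in all. The Dock10 window has a GC content of 70.4% and 2 GC boxes, 208 and 135 bases before the start, and the window of its internal start site (chr1:80665353-80665602, GC content 43.2%) matched none of the 7 motifs. The Dock2 window has a GC content of 52.8% and 2 PU boxes, 164 and 9 bases before the start. GC boxes were found in 32.7% and PU boxes in 23.3% of all 32851 promoters of this length. Dock8 (GC content 77.6%) and Dock11 (69.6%) also held 2 GC boxes each, so Dock10 shared this feature with genes whose groups overlapped. Of the 3 Dock9 starts, 1 held 5 GC boxes, 1 held an NF-kB site, and 1 held an E-box and a PU box. AP-1 matched in 0 of the 8 windows (6.75% of all promoters), STAT6 in 0 (5.85%) and ETS in 0 (2.88%), and E-box and NF-kB sites were found in 6.02% and 7.25% of all promoters. These are matches of letters only.

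For each member that passed the filter, the 2 genes whose log2 CPM followed it most closely over the 8 libraries were listed among about 7270 genes whose mean log2 CPM was 4 or more. For Dock10 they were Lin52, a subunit of the DREAM cell cycle complex (r = 0.985), and Casp2, a caspase (r = 0.974). Both separated the groups as Dock10 did: Lin52 ranged from 11.2 to 16.9 CPM in HET and from 20.3 to 22.7 in WT, and Casp2 from 46.6 to 58.1 and from 60.4 to 73.7. Since both were picked by their correlation with Dock10 over these same libraries, this separation is no independent result. The genes most like Dock2 were Atp6ap2 and Dnase1l3 (r = 0.975 each). Those most like Dock8 were Arfgef1, an exchange factor for ARF GTPases (r = 0.975), and Mapre2, a microtubule end-binding protein (r = 0.968). Dock9 was followed by Capn7 (r = 0.990) and Tent5c (r = 0.962), and Dock11 by Aph1a (r = 0.961) and Parvg, a parvin of the actin cytoskeleton (r = 0.934). For scale, the highest 1% of genes started at r = 0.77 for Dock11 and r = 0.86 for Dock10.

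The genes around the DOCK proteins were read from 6 lists of 137 genes in all, other DOCK genes included. Of these, 99 were tested, 0 were called in either direction by edgeR at an adjusted p under 0.05, and 10 had an unadjusted p under 0.05 (2 higher and 8 lower in HET), a share of 10.1% beside 7.22% of all tested genes (3.34% higher and 3.88% lower). Negative log2 fold changes made up 68.7% of the 99 genes beside 50.1% of all tested genes, with a median of -0.08. The lists were chosen with earlier results of these data known, so these shares cannot be read as a shift of the pathway.

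Among adaptors, 13 of 14 genes were tested, 10 with a negative value, and the median was -0.10. Elmo1, the scaffold that binds Dock2, had 114, 116, 135 and 120 CPM in HET. In WT it had 170, 175, 123 and 160 CPM. WT replicate 3 lay inside the HET range, and the log2 fold change of -0.37 (SE 0.13) did not pass the test (edgeR adjusted p = 0.571). Elmo2 had 41.7 ± 5.10 and 37.2 ± 8.44 CPM in HET and WT (adjusted p = 0.908) and Elmo3 had 4.67 ± 3.02 and 3.86 ± 0.821 CPM (adjusted p = 0.956; SD, n = 4 each, edgeR). Lrch1, a partner of Dock8 that restrains it, had a log2 fold change of -0.52 (SE 0.21, edgeR adjusted p = 0.613). Myd88, which links Toll-like receptors to Dock8 in B cells, had one of 0.20 (SE 0.14, edgeR adjusted p = 0.814).

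Of the GTPases themselves, 12 of 20 listed genes were tested, 9 with a negative value, with a median of -0.09. Rac2, the haematopoietic Rac, was at 1428 ± 177 CPM in HET and 1455 ± 49.5 CPM in WT (edgeR adjusted p = 0.970). Cdc42, the target of Dock8 and the DOCK-D proteins, was at 679 ± 33.7 and 650 ± 26.1 CPM (edgeR adjusted p = 0.897). Rac1 was at 371, 383, 355 and 396 CPM in HET. In WT it was at 343, 323, 272 and 318 CPM, so every HET library lay above every WT library, in the opposite direction to Dock10. Its log2 fold change of 0.26 (SE 0.09) did not pass the test (edgeR adjusted p = 0.576), and 1.99% of all tested genes had all HET libraries above all WT libraries. Rhog, an activator of ELMO and DOCK complexes, had a log2 fold change of 0.09 (SE 0.10), Rhot1 of -0.48 (SE 0.27) and Rhob of -0.71 (SE 0.42), with edgeR adjusted p of 0.891, 0.769 and 0.776.

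Among 21 tested exchange factors of other families (13 with a negative value, median -0.11), the lowest unadjusted p belonged to Fgd6, a Cdc42 exchange factor, at 4.31 ± 1.11 CPM in HET and 9.32 ± 2.16 CPM in WT. Its groups did not overlap (3.12 to 5.42 against 6.79 to 11.97 CPM), but the log2 fold change of -1.11 (SE 0.40) did not pass the test (edgeR adjusted p = 0.579). Vav3, a Rac exchange factor downstream of the B cell receptor, had a log2 fold change of -0.61 (SE 0.26, edgeR adjusted p = 0.629). In the other direction stood Trio with 0.35 (SE 0.30, edgeR adjusted p = 0.853) and Sos2 with 0.55 (SE 0.50, edgeR adjusted p = 0.862).

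Of the proteins that switch these GTPases off or keep them inactive, 19 of 27 were tested, 14 with a negative value, and the median was -0.07. Racgap1, a GTPase-activating protein of the dividing cell's midzone, was at 36.8, 44.7, 45.1 and 47.9 CPM in HET. In WT it was at 21.6, 31.3, 31.6 and 15.1 CPM, all below HET. Its log2 fold change was 0.81 (SE 0.25, edgeR adjusted p = 0.492). Arhgap1 had one of 0.24, Arhgap4 of -0.28 and Arhgap27 of -0.26, with edgeR adjusted p of 0.834, 0.665 and 0.818.

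Of 39 effectors of Rac and Cdc42, 33 were tested, 22 with a negative value, with a median of -0.07. Iqgap1, a scaffold that binds active Rac1 and Cdc42, had 381, 347, 334 and 383 CPM in HET. In WT it had 433, 398, 494 and 514 CPM. The groups did not overlap, and the log2 fold change of -0.35 (SE 0.10) did not pass the test (edgeR adjusted p = 0.414). Cyfip2, a subunit of the WAVE complex that Rac activates, had 135 ± 12.9 CPM in HET and 170 ± 27.3 CPM in WT (SD, n = 4 each), with a log2 fold change of -0.33 (SE 0.13, edgeR adjusted p = 0.602). Pak1, a kinase switched on by both GTPases, was low, at 3.90 ± 2.81 and 1.04 ± 1.24 CPM (log2 fold change 1.91, SE 1.04, edgeR adjusted p = 0.740), and Abi3, of the WAVE complex, had a log2 fold change of 0.16 (SE 0.14, edgeR adjusted p = 0.852).

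**Figure D4:**
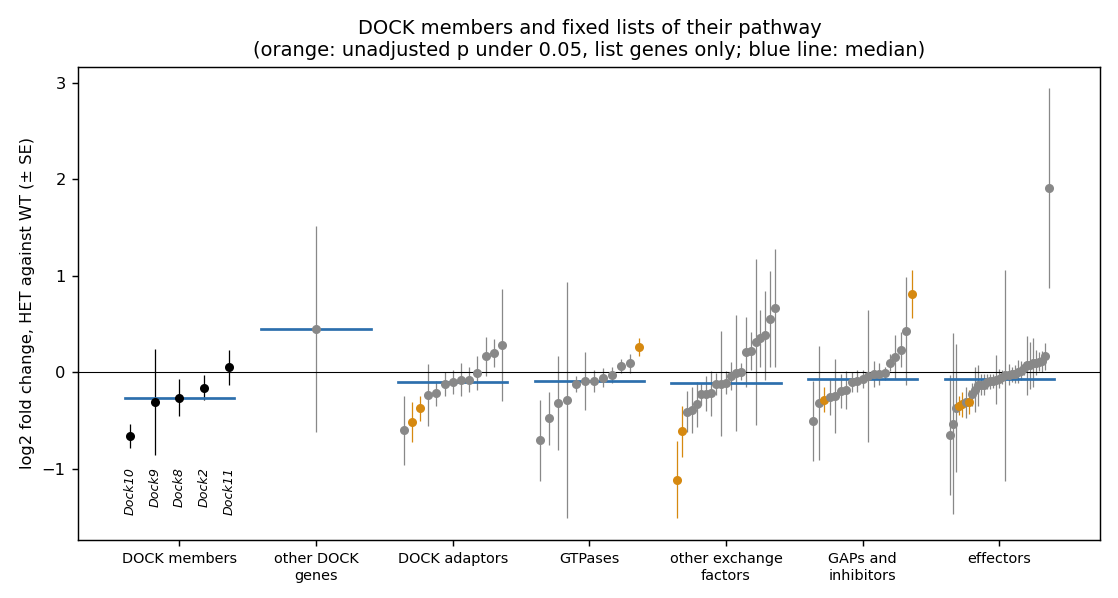
Log2 fold change of HET against WT (y axis, with SE) for the 5 DOCK members that passed the filter on low counts (black, named, without a test) and the tested genes of 6 lists (grey, or orange where the unadjusted p was under 0.05), with the median of each in blue. Dock10 is the lowest of the members at -0.66, and the list medians apart from that of the single other DOCK gene lie between -0.11 and -0.07.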

How the data were processed

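The authors made SMART-Seq2 libraries of about 200 sorted cells, aligned reads to GRCm38 with HISAT2 2.2.1 and counted them per gene with HTSeq. The annotation release, strand setting and treatment of reads with several alignments are not given in the sources used here. They deposited whole-number counts (24259 symbols) and TPM (24232 symbols, 27 fewer). All columns matched a library by name. The 6 genes and the lists of related genes were chosen with earlier results of these data known.

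The counts were tested with edgeR 4.0.16 in R 4.3.3 (filterByExpr, TMM, robust quasi-likelihood F-test, group as the only factor, Benjamini-Hochberg, threshold 0.05), after a check on simulated counts. edgeR, set for counts, took the place of the study's DESeq2 (1.42.0), which was an alternative, as were limma 3.58.1 on log2 TPM, other filters and each library left out. SEs are the fold change over the square root of F. CPM are TMM-scaled. Lengths and positions came from GENCODE M21, which held 23530 symbols. The protocol adds no molecular identifiers, and intervals cover counting error only. Named were the DOCK genes, Rac1, Rac2, Cdc42 and the ELMO genes, in each list every called gene and the 2 genes per direction with the lowest p, and the 2 genes most correlated with each tested member. Same-numbered HET and WT libraries did not deviate together over all tested genes (correlations -0.053, 0.008, 0.0032 and -0.0291), so no pairing by number was seen. Pairs of other numbers ran from -0.0762 to 0.0756. A batch shared by number that touches only some genes could not be seen in this way. Some genes that the rule or the lists hold are not reported here.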

Additional observations from a re-analysis of the deposited data

Results flagged for a closer look

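In groups of 4 libraries, 5 of 66 groups examined (33 genes) had a library far from the other 3, where chance alone gives about 5 percent. Among the members this was Dock5 in WT replicate 2, with 2.94 CPM (29 counts) where the remaining WT libraries had 0 to 0.284 CPM. Among the other DOCK genes, Dock3 in HET replicate 1 stood at 2.24 CPM (28 counts) against 0.258 to 0.448 CPM. These values rest on few counts. Among the related genes, Rhog was lowest in WT replicate 4 with 179 CPM against 199 to 200.03 CPM. Abi3 was also lowest in WT replicate 4, with 65.0 CPM against 80.8 to 83.1 CPM. Rhob was highest in WT replicate 1 with 18.004 CPM against 8.003 to 8.95 CPM.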

How the results depend on the processing

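The number of genes called at an adjusted p under 0.05 was 3 and moved to 95 with DESeq2, 38 with no filter on low counts, 7 with a mean of at least 50 counts, 0 and 1 with limma on log2(TPM + 1) and log2(TPM + 0.1), 0 with limma at a mean TPM of at least 1, and 1 to 6 when a library was left out (6 without WT replicate 1). All 3 were lower in HET, but this direction did not hold in every setting. DESeq2 called 41 genes higher and 54 lower, and without WT replicate 1 edgeR called 4 higher and 2 lower. Before adjustment 920 genes had a p under 0.05, 1938 with no filter, and 778 to 1079 when a library was left out. With the replicate number as a block, which the check of pairing does not support, 0 genes were called (912 at an unadjusted p under 0.05), and the Dock10 log2 fold change was -0.67. Of the listed genes, 0 were called, against 1 with DESeq2 (Srgap3, named after its value was seen), and 0 whichever library was left out. Before adjustment 10 had a p under 0.05, against 6, 5 and 4 with the 3 limma settings and 9 to 12 when a library was left out. The log2 fold change of Dock10 kept its direction in all settings run, from -0.70 to -0.58 with all libraries. The cause of these changes was not tested. The median of the 5 members was -0.38 to -0.13 when a library was left out, that of Dock2 -0.24 to -0.03, of Dock8 -0.38 to -0.13, of Dock9 -0.55 to 0.04 and of Dock11 -0.08 to 0.20.

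Levels between genes depended on the length. The mean log2 ratio of Dock10 over Dock2 was 1.16 in TPM, -0.98 per kb of exon and -0.47 per kb of longest coding transcript, the last being a setting chosen after seeing the data. Dock2 over Dock8 went from -0.95 to 1.46 and 1.93, Dock2 over Dock11 from -0.71 to 1.01 and 1.38, and Dock11 over Dock8 from -0.25 to 0.44 and 0.55. Dock10 over Dock8 moved from 0.20 to 1.45 on the last scale. These shifts follow from the lengths alone, since the counts are the same. The pool of cells per group limits what all values say about genotype. Dock5 and Dock9 rest on few counts.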
